A study of Mus musculus with 36 samples.

Results

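The noncoding hosts of small nucleolar RNAs (snoRNAs) followed here are 8 mouse genes: 1110038B12Rik (also written Snhg32), Gas5, Snhg1, Snhg3, Snhg5, Snhg6, Snhg8 and Snhg12. They were selected by name, and 1110038B12Rik, the gene that led to the choice, was picked because its counts were higher in morulae sired by males fed on a high-fat diet (HFD). All 8 were found in each of 6 gene tables, which hold 51912 to 55487 genes and 36 libraries. All mice were C57BL/6 wildtype by the labels, and the study's methods name the substrain C57BL/6N. Cauda spermatozoa (3 HFD and 3 LFD libraries) came by swim-up from 8-week-old males that had eaten HFD (60% of kcal from fat) or a low-fat diet (LFD, 10%) for 2 weeks. Morulae (3 libraries with HFD fathers and 3 with LFD fathers) were made by in vitro fertilization of oocytes from unexposed wild-type females with such sperm and were picked after 72 h in culture. How many morulae went into a library is not given in the sources used here. Round spermatids, the postmeiotic germ cells of the testis, came from 8-week-old males on either diet (6 libraries). Liver, epididymal white adipose tissue (eWAT) and gastrocnemius (6 libraries each) came from male offspring of HFD-fed fathers, raised on chow, that were glucose tolerant or glucose intolerant.

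The columns of the sperm and morula tables show the diet by a letter, and the libraries are called here by those column names: h1000, h3000 and h4000 (HFD sperm), l1000, l2000 and l4000 (LFD sperm), MH5, MH6 and MH7 (HFD fathers) and ML1, ML2 and ML3 (LFD fathers). For 3 morula samples a free-text label named the other diet, and the letters, titles and treatment labels were followed. The columns of the other 4 tables could be tied to their tissue only, so these are given as ranges and medians with no comparison of diets or glucose tolerance. Totals were 2560219 to 4062321 counts in sperm, 20138842 to 31056066 in round spermatids, 11471251 to 12153141 in morula, 2036237 to 2552454 in liver, 1338149 to 4055537 in eWAT and 369772 to 2749920 in gastrocnemius. Levels are counts per 1000000 counts of the library total (CPM) unless another scale is named. A count of 0 allows up to 3 counts, which is at most 1.17 CPM in sperm and 0.262 CPM in morula, for counting error only. Markers fixed for each tissue were present: the 9 morula markers all had counts in every morula library, and spermatid and spermatozoa markers summed to 4295 to 10841 CPM in sperm and to at most 2.76 CPM in morula. Sperm also held the epididymal secretory gene Crisp1, at 1585 to 23483 CPM, with 113287 counts over its libraries. The other epididymal markers of the fixed list drew few counts there. These were 67 for Spink12, 28 for Defb20, 6 for Lcn5, 4 for Lcn8 and 0 for Lcn9.

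SnoRNAs are short nuclear RNAs that guide chemical changes of ribosomal RNA: those with boxes C and D direct 2′-O-methylation, and those with H and ACA boxes direct pseudouridylation. In vertebrates most are cut out of introns, so a host gene is transcribed, spliced and trimmed, and the snoRNA is what remains of the intron. In the genes followed here the spliced exons encode no long protein, and several of these transcripts are short-lived because ribosomes load on them and nonsense-mediated decay removes them. Gas5 was named for its accumulation in growth-arrested cells and holds many box C/D snoRNAs. Snhg1 carries the U22 host unit, Snhg3 the U17 snoRNAs (Snora73a and Snora73b), Snhg5 the U50 snoRNAs, Snhg6 U87, Snhg8 the H/ACA snoRNA Snora24, and Snhg12 several H/ACA snoRNAs with Snord99. The mouse embryo starts its own transcription at the 2-cell stage, whereas condensed sperm chromatin transcribes little.

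The annotation places 31 snoRNA entries inside these 8 genes on the same strand (10 in Gas5, 8 in Snhg1, 5 in Snhg12, 2 each in 1110038B12Rik, Snhg3 and Snhg5, 1 each in Snhg6 and Snhg8). Some of these entries overlap each other, Snord80 and Snora16a being listed as 2 entries each. Sequences of 5 of them are shown because they are the products that make these genes hosts: the 2 of 1110038B12Rik, 1 box C/D example of Gas5, the Snhg6 product that drew counts, and an H/ACA example. Capitals mark the box C letters TGATGA and box D letters CTGA, or the ACA near the 3′ end, read on the gene's strand in GRCm38.
Snord52 (1110038B12Rik; chr17:34950952-34951017, minus strand): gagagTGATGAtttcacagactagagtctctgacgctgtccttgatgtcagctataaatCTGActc
Gm25744 (1110038B12Rik; chr17:34952013-34952075, minus strand): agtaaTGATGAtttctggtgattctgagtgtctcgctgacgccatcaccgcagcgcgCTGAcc
Snord47 (Gas5; chr1:161038082-161038158, plus strand): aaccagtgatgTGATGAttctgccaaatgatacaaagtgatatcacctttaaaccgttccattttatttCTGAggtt
Snord87 (Snhg6; chr1:9942463-9942549, minus strand): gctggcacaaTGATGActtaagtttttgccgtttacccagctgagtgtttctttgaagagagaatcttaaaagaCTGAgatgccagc
Snora24 (Snhg8; chr3:123507937-123508066, minus strand): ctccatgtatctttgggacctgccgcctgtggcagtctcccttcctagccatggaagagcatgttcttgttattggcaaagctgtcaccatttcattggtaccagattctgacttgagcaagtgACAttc
Among 1507 annotated mouse snoRNAs, 20.5% held TGATGA in the first 20 bases together with CTGA in the last 20, and 46.8% held ACA in the last 8 bases. Only the given strand was searched.

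The counts are read here for the hosts, since they cannot tell how much of these products was present. Of the 31 entries, 29 had no count in any of the 36 libraries. In 5 of the 6 tables, 28 of the 31 lay wholly inside a counted exon of their host (26 in the round spermatid table), since the annotation includes transcripts that retain introns. The 2 entries with counts, Snord87 and Snora73b, lay outside the counted exons of Snhg6 and Snhg3. Reads on bases that an entry shares with a host exon may have been left uncounted. The missing counts of entries inside such exons therefore do not measure these snoRNAs, and nothing is concluded from them. For Snhg1, for Snhg8 and, outside the round spermatid table, for Snhg12 the counted length equalled the whole gene (2969, 853 and 2402 bases). Unspliced and spliced transcripts of these are therefore counted alike. The counted part was 91.3% of Gas5, 92.0% of Snhg5 outside the morula table and 81.1% of 1110038B12Rik, so much intron sequence is counted there too. Snhg3 is a special case: its 986 counted bases were shared to 86.3% with exons of Rcc1, which lies on the same strand, of the opposite-strand gene Gm17300 or of the snoRNAs, and its values come from a small part of the gene. Snhg6 shared 11.1% of its counted bases with Mcmdc2 on the other strand. The counted length of Snhg5 was 3634 bases in the morula table and 1730 in the other tables, and that of Snhg12 was 1626 in the round spermatid table and 2402 elsewhere.

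Transcripts of many snoRNA hosts and ribosomal protein genes start with a run of pyrimidines, the 5′ terminal oligopyrimidine (TOP) tract, which ties their translation to growth signals. RefSeq windows (GRCm38.p6) of 250 bases before to 50 after the annotated start were found for 7 of the 8 genes, in 9 windows, and for Snhg6 none was given. A C followed by at least 4 more C or T, starting within 10 bases of the annotated start on the gene's strand, was present in 7 of the 9 windows (6 of the 7 genes), against 30.7% of all 32851 windows. The E-box letters CACGTG, which read the same on both strands, were in 0 of the 9 windows and in 7.15% of all windows. Stretches of 50 bases, 25 on each side of the start, are shown for 4 genes with a tract and for Snhg1, where these letters were not matched in this window. Capitals mark the tract.
1110038B12Rik (chr17:34952444-34952493, minus strand): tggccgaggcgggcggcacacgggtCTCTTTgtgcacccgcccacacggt
Gas5, second window (chr1:161035141-161035190, plus strand): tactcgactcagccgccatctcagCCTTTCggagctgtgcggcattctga
Snhg12 (chr4:132308653-132308702, plus strand): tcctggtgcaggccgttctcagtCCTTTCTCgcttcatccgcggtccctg
Snhg8 (chr3:123508312-123508361, minus strand): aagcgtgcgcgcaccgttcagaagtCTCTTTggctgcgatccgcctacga
Snhg1 (chr19:8723462-8723511, plus strand): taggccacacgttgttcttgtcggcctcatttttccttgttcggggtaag

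Morulae gave the highest counts of these hosts. The summed level of the 8 genes had a median of 821 CPM in morula (range 750 to 1231), 513 in eWAT (384 to 864), 250 in gastrocnemius (195 to 259), 207 in liver (132 to 296), 109 in sperm (22.8 to 69.7 on HFD, 148 to 272 on LFD) and 52.3 in round spermatids (51.6 to 53.5). The germ cell tables were thus at the low end, and the 6 round spermatid libraries were nearly alike. These tables differ in kit, extraction and read layout (Nextera libraries for germ cells and morulae, 3′ tag libraries for the offspring tissues) and were made separately, so the order was not tested. Because mtDNA-encoded transcripts took 43.5% to 84.3% of sperm counts, the sums were also taken as CPM of the total without mtDNA-encoded genes, which gave medians of 1105 in morula, 613 in eWAT, 398 in sperm, 373 in gastrocnemius, 275 in liver and 53.5 in round spermatids. On that scale the HFD sperm libraries summed to 109, 318 and 393 and the LFD libraries to 404, 482 and 570, so that the HFD median lay below and the LFD median above that of gastrocnemius. Morula and round spermatids kept the first and last place. Sperm medians given below pool both diets unless one is named. In bulk samples such as these, fewer cells of a type and less RNA per cell cannot be told apart.

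**Figure D1:**
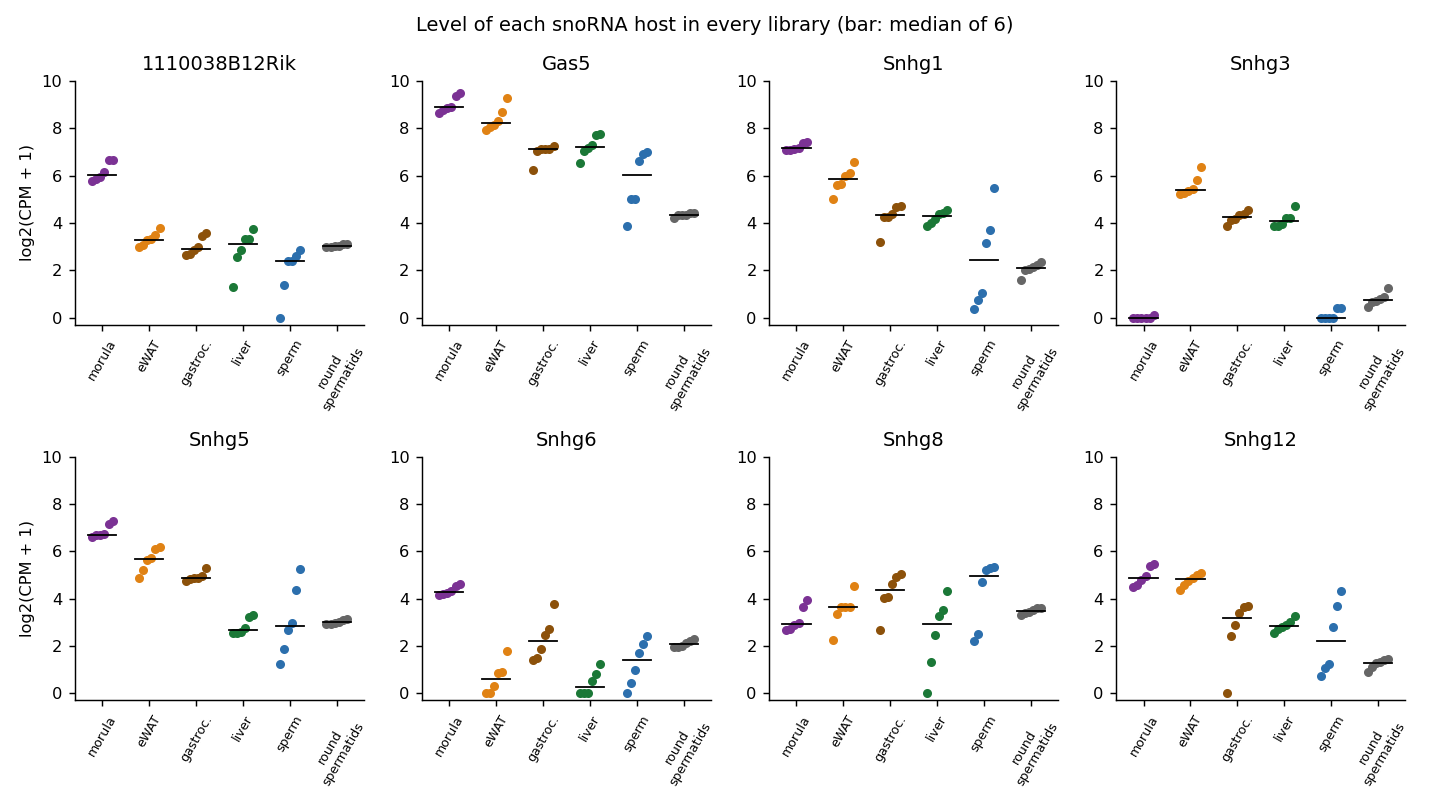
Level of each of the 8 snoRNA hosts as log2(CPM + 1), in 36 libraries of 6 tables; each point is a library and each bar the median of 6. Morula had the highest median for 6 genes, Snhg3 was highest in eWAT (41.1 CPM), and the pooled sperm median of Snhg8 (30.2 CPM) lies between low HFD and high LFD libraries.

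1110038B12Rik, the host of Snord52, was set apart by its morula level. Its morula libraries held 53.5 to 100.2 CPM (median 65.2) and did not overlap any other table, the next being eWAT with 6.88 to 12.8 CPM (median 8.83). Below eWAT, the medians of liver (7.61 CPM), round spermatids (7.09), gastrocnemius (6.55) and sperm (4.28) lay close together, and each overlapped its neighbour. Snhg1, the U22 host, showed the same first place, at 133 to 171 CPM in morula against 31.3 to 94.2 in eWAT, and its eWAT range also lay above gastrocnemius (8.11 to 25.6) and liver (13.7 to 22.1). Snhg6 held 17 to 23.4 CPM in morula and at most 12.8 CPM in any other library. Snhg5 held 97.9 to 155 CPM in morula, over a longer counted length than elsewhere, and 28.4 to 71.7 in eWAT.

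Gas5 and Snhg12 differed from these in that eWAT reached the morula range. Gas5 had a median of 473 CPM in morula (399 to 728) and of 300.4 in eWAT (242 to 618), and the ranges overlapped. Its lower levels ran from liver (median 148 CPM) and gastrocnemius (139) through sperm (64.4) to round spermatids (19.3). In this order only eWAT and liver were neighbours without overlap. As CPM of the total without mtDNA-encoded genes, its medians were 216 in gastrocnemius, 212 in sperm, 197 in liver and 19.7 in round spermatids. Snhg12 had medians of 28.7 CPM in morula and 27.3 in eWAT, followed by gastrocnemius (7.99), liver (6.14), sperm (3.64) and round spermatids (1.45). Without mtDNA-encoded genes in the total, its sperm median was 10.9, between gastrocnemius (12.9) and liver (8.13).

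The other 2 hosts did not follow that order. Snhg8, which carries Snora24, had medians of 6.56 CPM in liver, 6.62 in morula, 10.1 in round spermatids, 11.5 in eWAT and 19.6 in gastrocnemius. In sperm it read 24.7, 3.69 and 4.62 CPM in h1000, h3000 and h4000 and 35.7, 39.7 and 37.9 in l1000, l2000 and l4000. On library totals its HFD median was thus below and its LFD median above those of the other tables. With the diets pooled, the ranges of neighbouring tables overlapped on library totals. The place of the HFD median depended on the scale. Without mtDNA-encoded genes in the total, it lay above the medians of liver, morula, round spermatids and eWAT and below that of gastrocnemius. The LFD median stayed above those of the other tables on that scale. Snhg3 was at 35.9 to 80.6 CPM in eWAT, 13.5 to 22.4 in gastrocnemius and 13.5 to 25 in liver, but drew 110 counts over the 6 round spermatid libraries (0.377 to 1.39 CPM), 2 counts over the sperm libraries and 1 count over the morula libraries. In morula and sperm Snhg3 was therefore at or below the limit that a count of 0 allows, in the exon parts that no other gene shares.

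Between genes, levels can be set side by side only per length, and this was done within the Nextera tables. The length was not corrected for bases shared with other genes, where reads may have been left uncounted. In morula the shared part was 21% for Snhg1, 17.8% for Gas5, 15.2% for Snhg8 and 3.96% for Snhg5. In morula the median level per kilobase of counted length was highest for Gas5 (126 CPM per kilobase), followed by Snhg1 (48.1), 1110038B12Rik (36), Snhg5 (28.5), Snhg6 (16.2), Snhg12 (12) and Snhg8 (7.76). In round spermatids Snhg8 came first with 11.8 CPM per kilobase (10.5 to 13.3 over the 6 libraries), ahead of Gas5 with 5.13 (4.67 to 5.44), and these ranges did not overlap. In LFD sperm the median of Snhg8 was 44.4 CPM per kilobase and that of Gas5 was 31.4. In HFD sperm the medians were 5.42 for Snhg8 and 8.31 for Gas5, but these came from different libraries (h4000 and h3000). Library by library, Snhg8 lay above Gas5 in each LFD library, in h1000 (29 against 8.44) and in h4000 (5.42 against 3.69). Snhg8 lay below Gas5 only in h3000 (4.33 against 8.31). The place of Snhg8 thus went from the seventh in morula to the first in round spermatids. The study's methods name total (Ribo-minus) libraries for round spermatids and do not say so for sperm or morula. The part of this in the places was not tested.

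**Figure D2:**
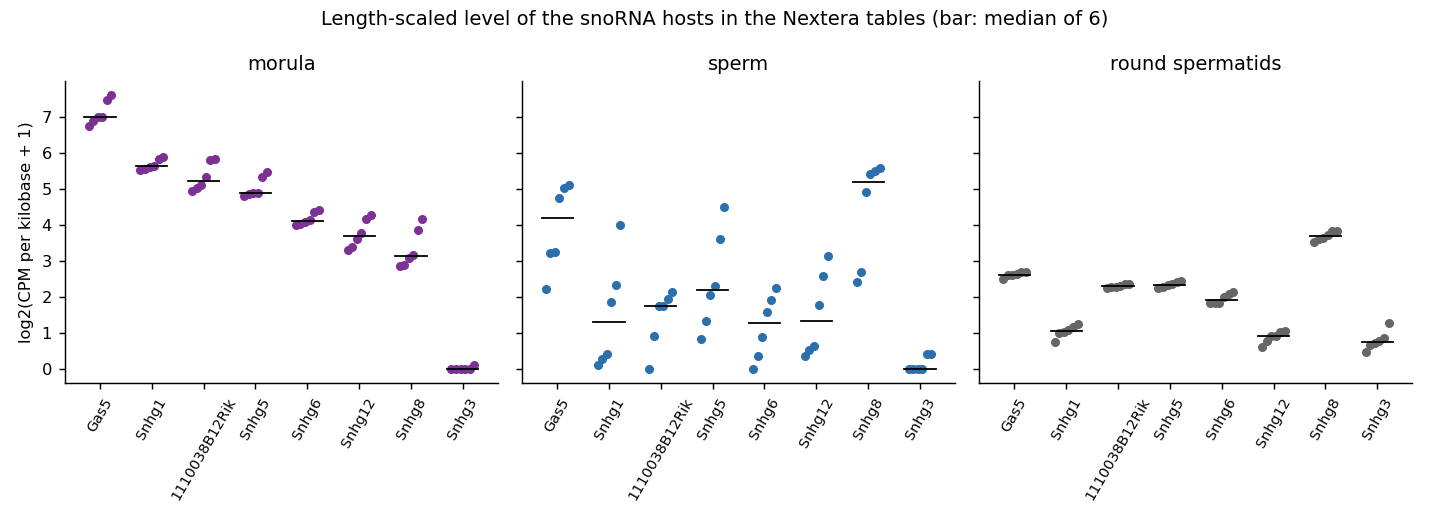
Level of the 8 hosts per kilobase of counted length, as log2(CPM per kilobase + 1), in the morula, sperm and round spermatid libraries; each point is a library and each bar the median of 6. Gas5 led in morula (126 CPM per kilobase), whereas Snhg8 led in round spermatids (11.8). The sperm panel pools both diets, and Snhg8 lay above Gas5 in every sperm library except h3000.

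The genes whose levels ran most like those of 2 of the hosts were looked for over all 36 libraries, by Pearson's r of log2(CPM + 1) among 8764 genes with at least 10 counts in each table. Nearest to 1110038B12Rik were Gabarapl2 (r = 0.935), Wtap (0.933) and Eif2s2 (0.925), and nearest to Gas5 were Luc7l3 (0.971), Rpl22 (0.963) and Rack1 (0.961). These values are a description, since the libraries fall into 6 tables and share tissue, kit and depth within a table.

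The paternal diet contrast in morula was the one that led to the choice of 1110038B12Rik, so it is described and not tested. The 7 hosts that passed the filter on low counts all had higher means with HFD fathers, by a median of 0.40 on the log2 scale, against 0.01 over all 13447 genes that passed. Values below are CPM scaled by TMM (trimmed mean of M values, a scaling that evens out differences in composition). 1110038B12Rik read 73.1 in MH5, 98.1 in MH6 and 96.5 in MH7, and 59.6 in ML1, 54.6 in ML2 and 58.5 in ML3. The groups did not overlap, and the log2 difference was 0.63 ± 0.13 (SE, n = 3 and 3). MH6 and MH7 stood well above MH5, which was the HFD library nearest to the LFD range.

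The same libraries were high for the other hosts. Gas5 read 458, 638 and 704 in MH5, MH6 and MH7 and 395, 487 and 479 in ML1, ML2 and ML3, with a log2 difference of 0.40 ± 0.13. MH5 fell inside the LFD range and the other HFD libraries lay above it. Snhg8 read 5.58, 14.1 and 11.1 with HFD fathers and 6.78, 5.60 and 6.54 with LFD fathers (log2 difference 0.70 ± 0.32). Its MH5 value was below all 3 LFD values, and the gene rests on 63 to 167 counts per library. Snhg12 read 28.2, 39.7 and 42.2 against 22.7, 31.0 and 21.9 (0.54 ± 0.19), so that ML2 exceeded MH5.

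The remaining hosts differed less. Snhg5 read 102, 139 and 150 in MH5, MH6 and MH7 and 101 to 106 in the LFD libraries (log2 difference 0.32 ± 0.13). Snhg6 read 18.9, 22.9 and 21.7 against 17.4 to 18.7 (0.23 ± 0.17), without overlap but with MH5 close to ML1. Snhg1 read 142, 161 and 166 against 136 to 148 (0.15 ± 0.10), with MH5 inside the LFD range. In all 7 genes MH6 and MH7 held the 2 highest values of the 6 libraries.

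**Figure D3:**
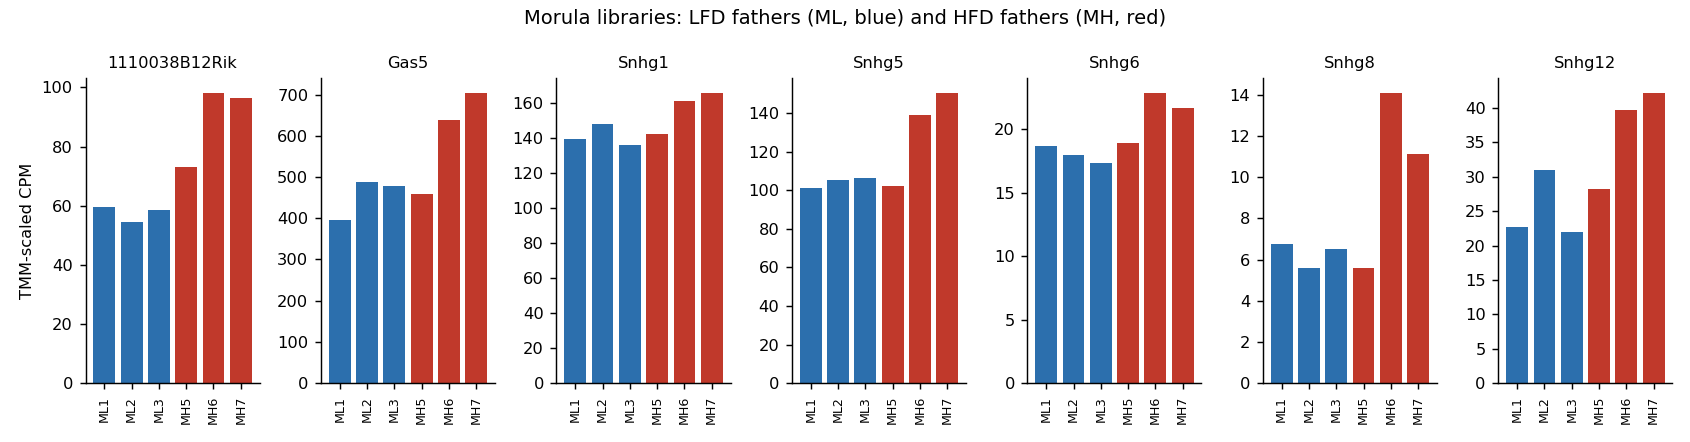
TMM-scaled CPM of 7 snoRNA hosts in the 6 morula libraries, each bar being 1 library (blue, LFD fathers, ML1 to ML3; red, HFD fathers, MH5 to MH7); every axis starts at 0. In each panel MH6 and MH7 are the tallest bars, and for Gas5, Snhg1 and Snhg5 MH5 sits inside or next to the LFD range.

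As background, edgeR called 0 of the 13447 genes between the morula groups at an adjusted p under 0.05 (0% called), with 858 at an unadjusted p under 0.05. DESeq2 called 18 genes, edgeR without the filter on low counts 63, and edgeR without MH5 2. On the TMM scale, 2 of the 7 hosts (1110038B12Rik and Snhg6) had HFD values above all LFD values, a pattern that 5.94% of all tested genes showed. On that scale 0 of the 7 lay below all LFD values, as 6.18% of genes did. Nothing is read from these counts, since the contrast was used for the choice. As CPM of the library total the Snhg6 groups overlapped, with 18.2 in MH5 and 18.9 in ML1. Without mtDNA-encoded genes in the total they did not overlap. MH5 had counts for 20577 genes, MH6 for 22794, MH7 for 22356 and the LFD libraries for 21024 to 21697, so the libraries with high host levels also detected the most genes, and the part of this in the host levels was not tested. Oocyte and cumulus markers summed to 16.7 to 18.8 CPM with HFD fathers and 14 to 21.2 CPM with LFD fathers. The 5 leukocyte markers, of which 2 to 4 had counts in a library, summed to 2.41 to 2.97 CPM with HFD fathers and 4.10 to 5.60 CPM with LFD fathers, without overlap. That sum was mostly Cd68, with 223 counts over the morula libraries, against 30 for Itgam, 14 for Csf1r, 7 for Ptprc and 0 for Lyz2. The 9 morula markers summed to 344 CPM in MH6 and to 394 to 426 CPM in the other 5 libraries. The part of these markers in the host levels was not tested. Without MH5 the median log2 difference of the hosts was 0.56, and without any 1 of the other libraries it was 0.27 to 0.45.

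Related genes were followed in 4 lists. Of 15 other noncoding snoRNA hosts, 9 passed the filter in morula, and 8 of these were higher and 1 was lower with HFD fathers, with a median log2 difference of 0.42 and 0 called. Zfas1, a host of box C/D snoRNAs, differed by 0.61 ± 0.17 and Snhg20 by 0.42 ± 0.45, and the gene with the lower mean was Epb41l4aos (-0.14 ± 0.30), named after its value was seen. Of 22 protein-coding snoRNA hosts, most of them ribosomal protein and translation factor genes, 11 were higher and 11 lower with a median of -0.00, and 0 were called. The 16 genes of snoRNP proteins and their assembly had a median of -0.07 (6 higher, 10 lower, 0 called) and the 15 genes of nonsense-mediated decay a median of 0.02 (8 higher, 7 lower, 0 called). The noncoding hosts outside the 8 genes thus had a median near that of the 8, and the protein-coding hosts a median near that of all genes. These lists were not compared by a test. They were read in the same morula libraries as the contrast used for the choice, so their likeness is no independent support.

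The sperm contrast was not used for the choice, so the same hosts were tested there between males on either diet. Whether these males also sired the morulae is not given in the sources used here. With standard errors of 0.46 (Gas5) to 1.11 (Snhg1) on the log2 scale, differences of the size seen in morula (0.15 to 0.70) could be missed. No host passed the test: edgeR's quasi-likelihood test with Benjamini-Hochberg adjustment called 0 of the 6 hosts that passed the filter and 0 of 8643 genes in all (0% called), with 1124 genes and 0 hosts at an unadjusted p under 0.05. The median log2 difference was -0.24 over the 6 hosts (4 lower on HFD, 2 higher) and -0.07 over all tested genes. DESeq2 called 295 of the 8643 genes, none of them a host, but it gave no adjusted p for Snhg12 and 1110038B12Rik. The limma-voom fit called 0. Nothing in the labels says that libraries of a diet came from separate males, so the p-values measure only the spread between these libraries.

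Gas5 was the best counted host in sperm. Its raw counts were 95, 127 and 51 in h1000, h3000 and h4000 and 283, 360 and 321 in l1000, l2000 and l4000. On the TMM scale these became 62.2, 44.5 and 31.8 CPM on HFD and 64.8, 76.8 and 49.2 on LFD, and the groups overlapped through h1000. The log2 difference was -0.46 ± 0.46 (adjusted p = 0.726, edgeR). Snhg5, host of the U50 snoRNAs, read 5.24, 7.70 and 3.11 on HFD and 4.58, 12.6 and 14.7 on LFD, with a log2 difference of -0.97 ± 0.77 (adjusted p = 0.639). Here l1000 fell among the HFD libraries.

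The other sperm hosts varied widely within a diet. Snhg1 read 11.2 in h3000, 17.3 in l4000 and 7.89 in l2000, but 0.623 to 1.31 in the other HFD libraries and 0.687 in l1000 (log2 difference -0.91 ± 1.11, adjusted p = 0.786). Snhg12 followed it, with 17.2 in h3000, 7.36 in l4000 and 0.916 to 3.84 in the other libraries (0.82 ± 1.03, adjusted p = 0.790). Snhg8 read 48.4 in h1000 and 5.25 to 25.8 in the rest (-0.02 ± 0.72, adjusted p = 0.992). 1110038B12Rik had 0 counts in h1000, 25 in h3000, 6 in h4000 and 11 to 15 in the LFD libraries, and its log2 difference was 0.71 ± 1.08 (adjusted p = 0.832). Without h3000 the difference of 1110038B12Rik was -0.49, that of Snhg12 was -1.09 and that of Snhg1 was -3.14. Snhg6, with 35 counts, and Snhg3, with 2 counts over the 6 libraries, did not pass the filter.

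Markers of other cells also differed between libraries. Stromal markers (Col1a1, Col1a2, Col3a1, Dcn and Acta2, all with counts in 5 of the 6 libraries and 4 of them in h1000) summed to 479 CPM in h3000, 52.2 and 135 CPM in the other HFD libraries and 144 to 254 CPM on LFD. As CPM of the total without mtDNA-encoded genes these sums were 2186 in h3000, 855 in h1000, 249 in h4000 and 406 to 581 on LFD. Epididymal markers, nearly all of it Crisp1, summed to 23495 CPM in l4000 and to 1585 to 7822 CPM in the other 5 libraries, with Lcn9 at 0 throughout; without mtDNA-encoded genes in the total these were 41565 and 6764 to 22129 CPM. The 5 leukocyte markers had counts in every library and summed to 26.1 to 60.8 CPM on HFD and 46.0 to 105 CPM on LFD. Without mtDNA-encoded genes in the total they summed to 141 to 278 CPM on HFD and 126 to 186 on LFD, so both ends of the HFD range moved from below to above those of the LFD range. Their part in the host levels was not tested.

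The sperm values depended on the scale. mtDNA-encoded genes took 78.1% to 84.3% of counts on HFD and 43.5% to 64.7% on LFD, and the TMM factors were 0.440 to 0.710 on HFD and 1.52 to 2.62 on LFD. On plain library totals Gas5 was at 25.6 ± 10.2 CPM on HFD and 114 ± 14.6 on LFD (SD, n = 3 each), and 3 hosts (Gas5, Snhg5 and Snhg8) lay below all LFD values on that scale. So did 57.2% of the 8643 tested genes. As CPM of the total without mtDNA-encoded genes, Gas5 was at 137 ± 67.9 on HFD and 274 ± 56.5 on LFD, still without overlap, and was the only host of the 6 to lie below LFD, against 26.2% of all tested genes. On the TMM scale 0 of the 6 hosts lay below LFD (12.2% of genes) and 0 lay above (8.21% of genes).

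With library totals in the edgeR fit, Gas5 (log2 difference -2.15, adjusted p = 0.0168) and Snhg5 (-2.73, adjusted p = 0.0262) passed the threshold as lower on HFD, 2 of the 6 hosts. In that fit 37.8% of all genes were lower past the threshold and the median of all genes was -1.82, so the hosts' median of -1.97 lay close to that of the whole table. In the TMM fit without mtDNA-encoded genes the hosts' median was -0.23 and 0 were called.

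**Figure D4:**
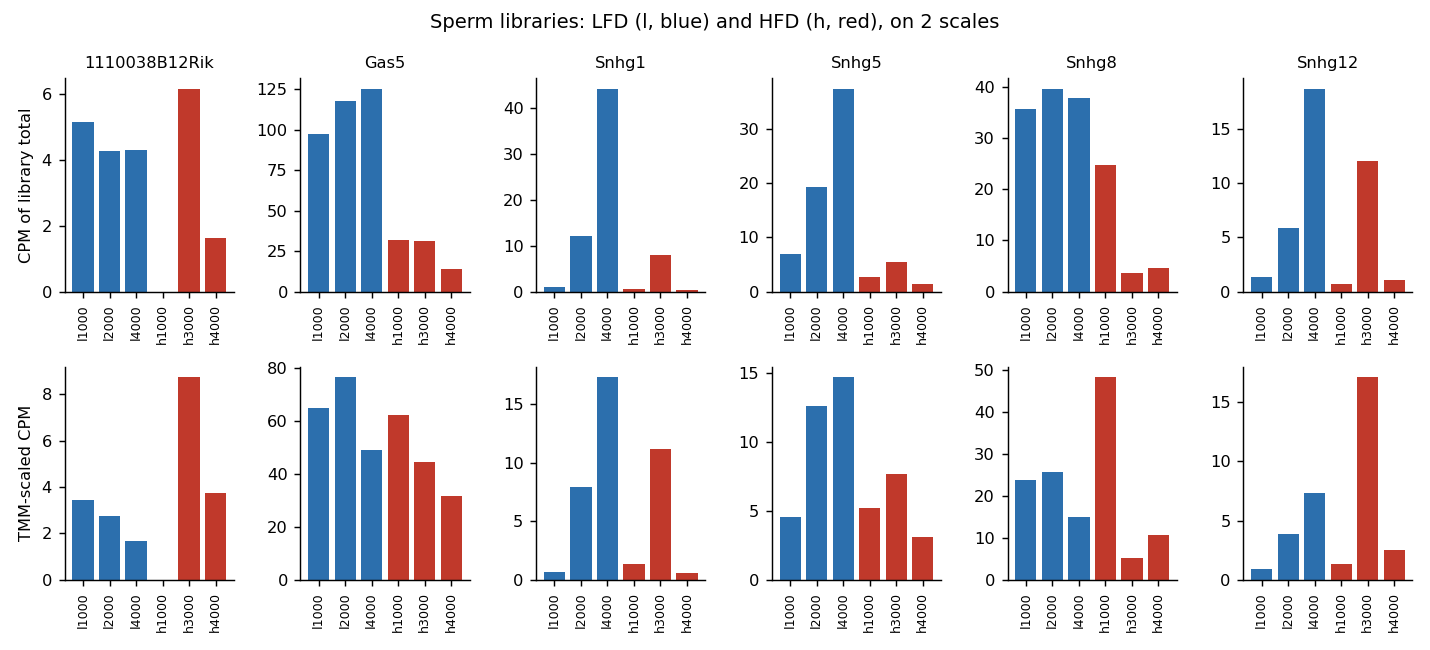
Level of 6 snoRNA hosts in the 6 sperm libraries, as CPM of the library total (upper row) and as TMM-scaled CPM (lower row); each bar is 1 library (blue, LFD; red, HFD) and every axis starts at 0. Gas5 sits at 97.1 to 125 CPM on LFD and at 13.9 to 31.7 on HFD in the upper row, and its groups overlap in the lower row.

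Related genes in sperm were uncalled as well. Of the other noncoding hosts only 3 of 15 passed the filter: Zfas1 (-1.72 ± 0.88), Snhg18 (-0.21 ± 1.02) and Snhg20 (0.41 ± 0.89). Of 17 protein-coding hosts tested, 2 were higher and 15 lower on HFD, with a median of -0.29 and 0 called, the extremes being Rpl10 (-1.52 ± 1.09) and Eif4a2 (-1.33 ± 0.54) at one end and Nop56 (0.31 ± 0.89) at the other. The snoRNP list had a median of -0.07 over 11 genes (5 higher, 6 lower, 0 called), from Ruvbl2 (-0.97 ± 0.90) and Shq1 (-0.94 ± 0.97), which serve in snoRNP assembly, to Dkc1, the pseudouridine synthase (1.14 ± 1.17), and Nufip1, an assembly factor (1.89 ± 1.09). The nonsense-mediated decay list had a median of 0.06 over 14 genes (9 higher, 5 lower, 0 called), from Rbm8a (-0.87 ± 0.90) and Casc3 (-0.73 ± 0.68) of the exon junction complex to Upf2 (1.20 ± 0.47) and Smg9 (1.56 ± 0.79).

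Side by side, 1110038B12Rik differed by 0.63 ± 0.13 in morula and 0.71 ± 1.08 in sperm, Gas5 by 0.40 ± 0.13 and -0.46 ± 0.46, and Snhg5 by 0.32 ± 0.13 and -0.97 ± 0.77. The sperm values carry the larger standard errors, and Gas5 had 51 to 360 counts per sperm library against 4836 to 8842 per morula library. Whether the diet difference of a host is unlike between sperm and morula was not tested.

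**Figure D5:**
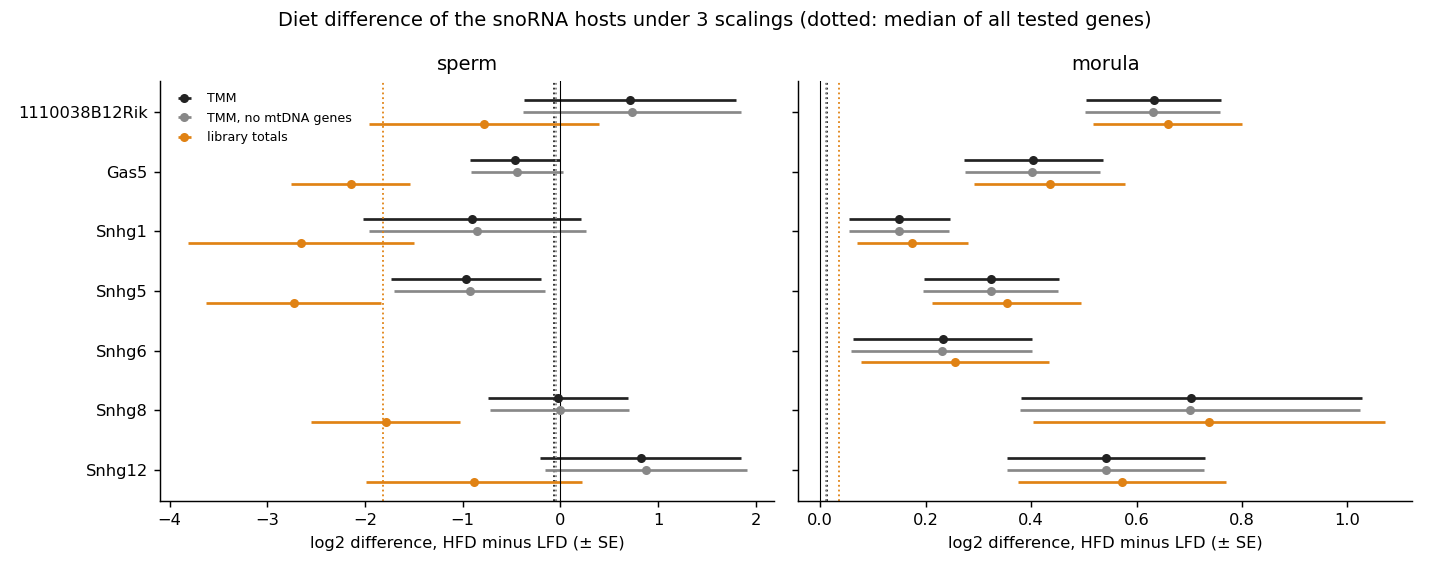
Log2 difference between HFD and LFD for the hosts that passed the filter in sperm (6 genes) and morula (7 genes), under TMM scaling, TMM scaling without mtDNA-encoded genes and library totals; bars are standard errors (n = 3 and 3) and dotted lines the median of all tested genes. In morula all 7 lie to the right of 0 under the 3 scalings; in sperm library totals move the hosts and the median of all genes (-1.82) to the left together.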

How the data were processed

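RNA-seq gene tables of sperm, round spermatids, morula, liver, eWAT and gastrocnemius were used. The authors deposited raw counts per gene from featureCounts, made after trimming (BBDuk) and alignment to the Ensembl build GRCm38 (STAR) in the software Artificial Intelligence RNA-Seq; tool versions are not given in the sources used here. Germ cell and morula libraries were made with the Nextera kit, and tissue libraries with a 3′ tag kit (QuantSeq), which reads only transcript ends. For round spermatids the study's methods also name total (Ribo-minus) libraries, and for sperm and morula they do not say so. In the tables, 54723 of 54838, 51633 of 51912 and 55141 of 55487 identifiers had a symbol.

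Sperm and morula were fitted apart with edgeR 4.0.16 under R 4.3.3, without a block: genes were kept by filterByExpr (min.count 10), libraries were scaled by TMM, and HFD was compared with LFD by a two-sided quasi-likelihood test at a Benjamini-Hochberg adjusted p of 0.05. A standard error is the log2 difference divided by the square root of F. DESeq2 1.42.0, limma-voom (limma 3.58.1), other scalings, no filter and leaving out each library were alternatives. The study's methods name NOISeq, which was not run. The 24 columns of the other 4 tables carry run numbers and were tied to tissue only, so no diet or tissue test was made. The 8 genes, the lists and the rule for named genes (the 8 members, the 2 largest and 2 smallest sperm differences of each list, and 3 genes nearest to 1110038B12Rik and to Gas5) were chosen with earlier results of these data known. One gene that the rule names is not reported here. The exon overlap, snoRNA and scale checks of non-overlapping groups were added after seeing the data. No 2 libraries of a diet were alike within sampling noise (chi-square per degree of freedom, lowest value 18.9 for sperm and 8.19 for morula, genes of 20 or more counts). The fits were also run on simulated counts with planted changes, which were larger than the host differences in morula. That run does not measure how well differences of the hosts' size are found, and its result is not given here. Python 3.11.15 (pandas 2.3.3, matplotlib 3.10.9) and version 1.17.8 of data.table served for tables and figures.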

Additional observations from a re-analysis of the deposited data

Results flagged for a closer look

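In the 4 tables with 6 libraries of one tissue, each host's 6 levels were checked for a library far from the others (a gap to its neighbour above 0.625 of the whole range, Dixon's critical value for 6 samples). Of 32 such groups, 5 held one. Chance gives about 1 in 20 for independent values from a normal distribution. These levels have unequal depths and some few counts, so that rate need not hold and no excess is read from the 5. In gastrocnemius, the library with run number 7 read 73.7 CPM for Gas5 (the others 130 to 151) and 12.8 CPM for Snhg6 (the others 1.69 to 5.55), low for the first and high for the second. That library held 935991 counts, adipose markers at 1192 CPM (the others at most 587) and muscle markers at 49663 CPM (38159 in library 4, 68675 to 83805 in the rest), whose part in these values was not tested. Library 9 of gastrocnemius read 37.7 CPM for Snhg5 (the others 25.5 to 29.7). Library 16 of liver read 25 CPM for Snhg3 (the others 13.5 to 17.7). Library 25 of eWAT read 2.42 CPM for Snhg6 (the others 0 to 0.854), on 8 counts.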

How the results depend on the processing

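In sperm, the count of hosts called was 0 in the main fit and under every alternative except library totals, where it was 2 (Gas5 and Snhg5). DESeq2 gave no adjusted p for Snhg12 and 1110038B12Rik. Genes called numbered 0 under TMM, DESeq2 size factors, TMM without mtDNA-encoded genes, limma-voom and each left-out library, 3266 with library totals, 295 with DESeq2, 41 with no filter on low counts and 2 with a replicate block by the number in the column names. The block paired only h1000 with l1000 (r = 0.103 of their deviations) and h4000 with l4000 (r = -0.136), so the libraries share only a number; it called 0 hosts. For morula no paired analysis was possible because the column numbers of the diets share none. The hosts' median log2 difference in sperm was -0.24, -1.97 with library totals, and -0.79 to 0.01 with a library left out, and the cause was not tested. Hosts below LFD without overlap numbered 0 on the TMM scale, 3 on library totals and 1 as CPM of the total without mtDNA-encoded genes, scales added after seeing the data.

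Signs of single hosts in sperm turned under some settings, none of them called. Snhg8 was 0.0924 with DESeq2 size factors, 0.0977 with DESeq2 and 0.29 with the replicate block, and ran from -1.49 to 0.44 with a library left out (above 0 without h3000, h4000, l1000 or l2000). Snhg12 was -0.89 with library totals and -0.70 with the replicate block, and ran from -1.09 (without h3000) to 1.59. 1110038B12Rik was -0.79 with library totals and -0.82 with the replicate block, and ran from -0.49 (without h3000) to 1.25. Snhg1 ran from -3.14 (without h3000) to 0.0982 (without l4000). With a library left out, Gas5 ran from -0.75 to -0.27 and Snhg5 from -1.36 to -0.65. Genes called in morula numbered 0 in the main fit, 63 with no filter on low counts, 18 with DESeq2 and 0 to 2 with a library left out (2 without MH5), and 0 under the other scalings. In morula the hosts' median stayed between 0.27 and 0.56 over left-out libraries, and 1110038B12Rik between 0.55 and 0.75.

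Summed host levels as CPM of the total without mtDNA-encoded genes were 398 in sperm, 53.5 in round spermatids, 1105 in morula, 275 in liver and 373 in gastrocnemius, each further from the value on library totals than 1 SD of the libraries. The planned tests between liver, eWAT and gastrocnemius were not run. Depth limits liver, sperm and gastrocnemius, where 5, 4 and 3 of the 8 hosts had fewer than 130 counts over 6 libraries; 1 gastrocnemius library held 369772 counts.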
